A study of Mus musculus with 6 samples.

Results

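The integrin and collagen gene families were examined in mouse ESCs (embryonic stem cells) without Dgcr8, the partner of the Drosha nuclease, with and without expression of miR-302. Within these families, genes were taken by their symbol, with no measured value in the rule: 23 integrin subunit genes, named Itga or Itgb with a number and Itgae, Itgal, Itgam, Itgav and Itgax, and 42 collagen chain genes, named Col, a number, a and a number. The basement membrane chains Col4a1 and Col4a2 were set apart and serve only for comparison. These 65 genes are part of 22180 genes measured. Itga10 has no row that names it alone and was not analysed here. The comparison asks how these genes respond when miR-302 is put back into cells that cannot make canonical miRNAs.

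All 6 samples were Dgcr8-/- ESCs. A control hairpin was present in 3 of them (shctrl), and the other 3 carried sh-miR-302, labelled as expressing mimics of miR-302. Samples within a group were independent, per the design text, which leaves unsaid whether a line is 1 clone. There was no Dgcr8 wild-type group, so every difference here is between 2 kinds of Dgcr8-/- cell. Total RNA was measured on single-colour expression arrays, and values are log2 expression levels, so a difference of 1 is a 2-fold change. Defining ESC markers read above the median level of all genes (6.16) in both groups, apart from Dppa5a, which read 5.24 to 5.75. The mean log2 level over 8 markers lay between 10.29 and 10.32 in the control arrays and between 10.13 and 10.41 in the miR-302 arrays. None of the 8 was called in limma. At an unadjusted limma p under 0.05, 0 were higher and 2 lower, and 2 were called lower without miR-302 sample 1. Dgcr8 itself was not analysed here. The array labelled miR-302 sample 1 stood apart: its root mean square distance from the mean of its group mates was 0.323 over all genes and 0.465 over the integrins, against 0.223 over all genes and 0.275 to 0.290 over the integrins for samples 2 and 3. For the control arrays these distances were 0.175 to 0.189 and 0.162 to 0.204. Over the collagens sample 1 stood out less, at 0.224, against 0.164 and 0.192 for samples 2 and 3 and 0.173 to 0.205 for the controls. Rows named for the endogenous genes Mir302a, Mir302b, Mir302c and Mir302d were not called with all arrays (limma, adjusted p = 0.116, 0.0585, 0.213 and 0.175). On that array Mir302a, Mir302c and Mir302d read 4.50, 5.44 and 3.85, within the control ranges of 4.10 to 4.51, 5.27 to 5.56 and 3.15 to 3.96, while in samples 2 and 3 they were above every control. Mir302b read 4.43, 4.32 and 4.15 in the controls and 4.58, 5.45 and 5.61 with miR-302, so sample 1 was again the lowest of its group. Whether these rows detect the product of the construct was not tested. Results that rest on sample 1 are given with and without it. In bulk RNA, a change in the share of cells of a type and a change in the RNA per cell cannot be told apart.

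Integrins are receptors made of an alpha and a beta chain that span the cell membrane and link the matrix outside to the actin cytoskeleton inside. The alpha chain largely sets the ligand: some pairs bind collagen, some laminin, some the RGD motif of fibronectin, vitronectin and other proteins, and some serve cell contacts of leukocytes. Collagens are proteins of 3 alpha chains wound into a triple helix, which form the fibrils of connective tissue, the network of basement membranes, beaded filaments and anchoring fibrils. ESCs attach to laminin and fibronectin through integrins that share the beta1 chain, and fibril collagens are known mainly from connective tissue cells.

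miR-302 is shown here because it is the agent that separates the groups. RefSeq (GRCm38.p6) lists the mature 3′ strands below on the plus strand of chromosome 3, 5′ to 3′, with the seed (bases 2 to 8, which pair with a target) in capitals. Those of miR-302b and miR-302d have the same seed, while the entry of miR-302c starts 1 base later, so that its bases 2 to 8 are shifted. Which member of the family the construct makes is not given in the sources used here.
miR-302b-3p: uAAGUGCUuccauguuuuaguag
miR-302c-3p: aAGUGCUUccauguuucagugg
miR-302d-3p: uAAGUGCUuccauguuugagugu

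With miR-302, 10 of the 65 genes changed (limma, adjusted p under 0.05), beside 16.4% of all genes tested. They were spread unevenly over the families. Of 23 integrin genes, 5 rose (Itga8, Itga1, Itgb3, Itga3 and Itga7), 3 fell (Itgal, Itgb5 and Itgb7) and 15 were not called. Of 42 collagen genes, 2 rose (Col6a5 and Col7a1), none fell and 40 were not called; at an unadjusted limma p under 0.05 the collagens numbered 7 higher and 0 lower. Among all genes 7.18% were called higher and 9.25% lower. The median log2 difference was 0.18 over the integrins and 0.08 over the collagens, against 0.01 over all genes, and the difference was above 0 for 14 of 23 integrins and 33 of 42 collagens, or 60.9% and 78.6%, against 50.9% of all genes. The level of a row, taken throughout as its mean over all 6 arrays, matters for how often genes are called. Of genes whose level was at least the median of all genes (6.16), 26.7% were called, and of those below it 6.12%. Of the 12 integrins at or above that level 6 were called, and of the 11 below it 2. Of the 9 collagens at or above it none were called, and of the 33 below it 2. Itga1, Itgb3 and Itga7 had control means of 5.68, 6.07 and 6.08, and reached that level only through their miR-302 arrays. Itgal, with a control mean of 6.36, lay below it through its miR-302 arrays. Counts by level are thus drawn partly from the changes themselves. Among genes at or above that level the median difference was −0.07 over the integrins, 0.09 over the collagens and −0.03 over all genes. The share of differences above 0 was not computed for all genes below that level, where 33 of the 42 collagens lie. Without miR-302 sample 3 the median over the 23 integrins was 0.04. The 3 control and 3 miR-302 arrays did not overlap for 11 of 23 integrins and 8 of 42 collagens, beside 35.8% of all genes. Low readings may be background, since no detection calls were used.

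**Figure D1:**
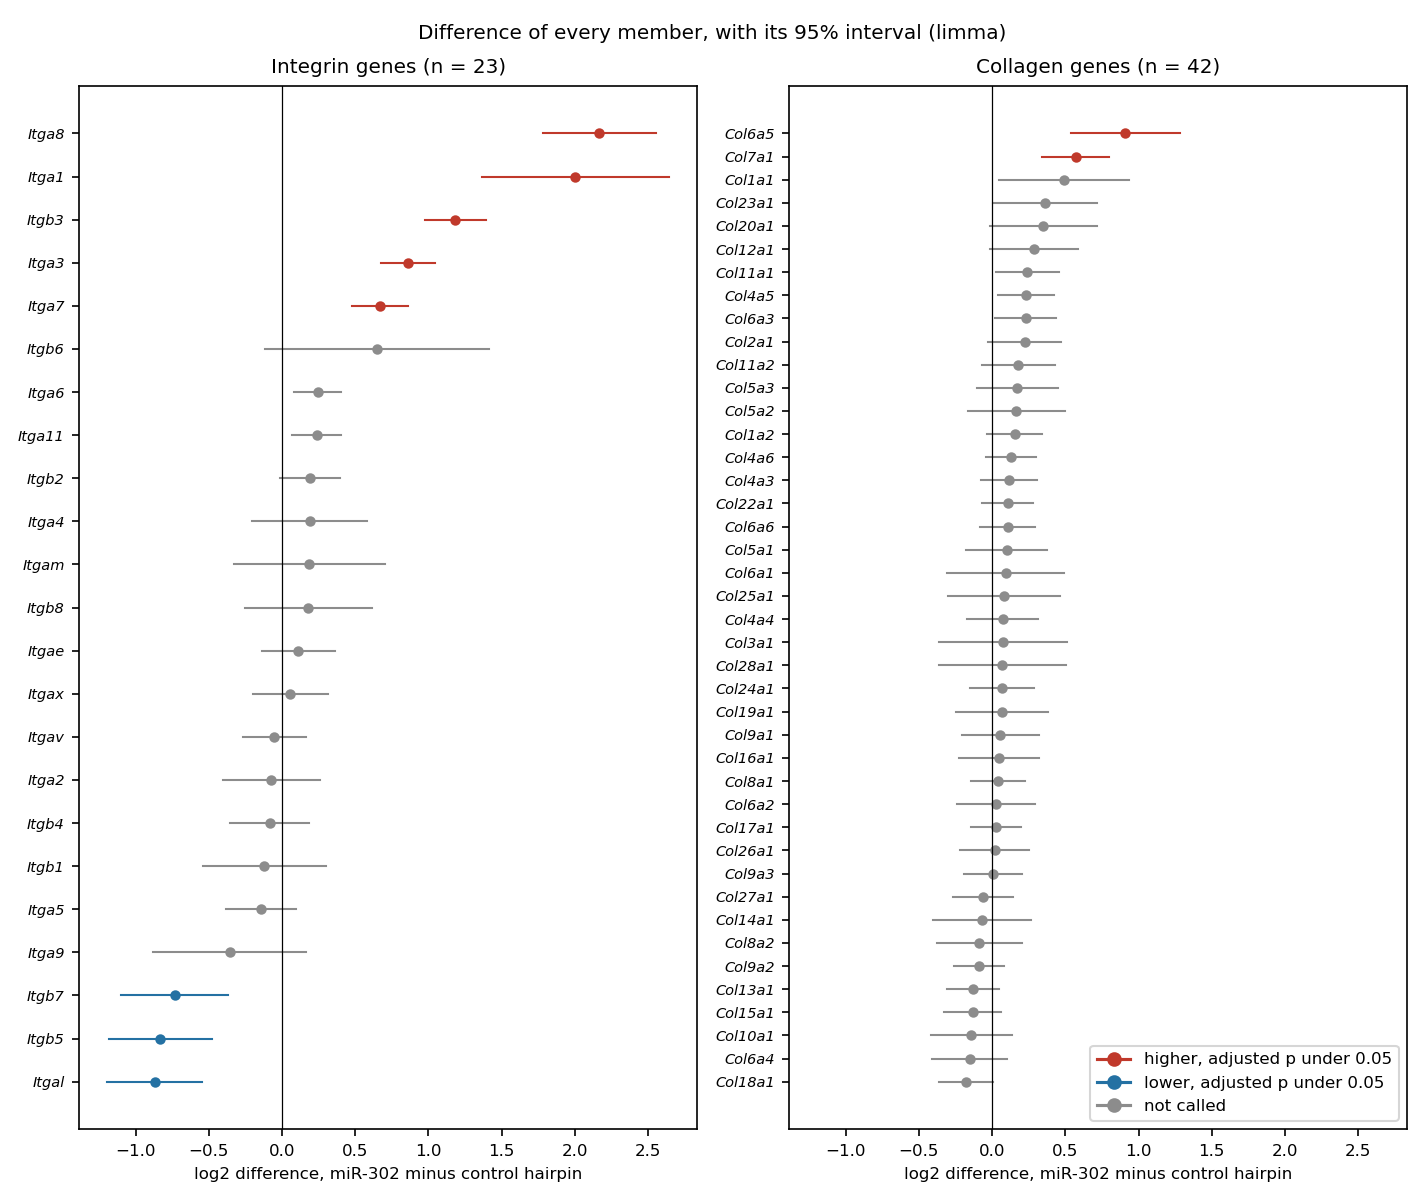
Difference in log2 level (miR-302 minus control hairpin) of the 23 integrin and 42 collagen genes, with its 95% interval from limma. Red points are higher and blue points lower at an adjusted p under 0.05, and grey points were not called; the integrins spread from −0.87 to 2.17, and the collagens from −0.18 to 0.91.

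The integrin alpha chains gave the largest rises. Itga8 encodes the alpha8 chain, which pairs with beta1, binds RGD ligands such as nephronectin, and is known from smooth muscle and the developing kidney. It read 4.90, 4.49 and 4.72 in control samples 1 to 3 and 6.56, 7.06 and 6.99 in miR-302 samples 1 to 3. All miR-302 arrays lay above all control arrays by a gap far wider than the spread within either group. The log2 difference was 2.17 ± 0.16 (SE), 4.49-fold higher (limma, adjusted p = 0.000753), and the call held in all 6 leave-one-out fits, each without 1 array. The mean of Itga8 over all 6 arrays lies below the median level of all genes (6.16), although its miR-302 arrays read above it. Itga8 does not enter a fit limited to genes of higher level.

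Itga1 encodes the alpha1 chain of the collagen receptor α1β1, which prefers basement membrane collagen and is found on smooth muscle and fibroblasts. It read 5.50, 5.77 and 5.77 in the controls and 7.05, 8.15 and 7.85 with miR-302, 4.01-fold higher, with a standard error of 0.27 on the log2 scale (limma, adjusted p = 0.00481). The groups did not overlap, and miR-302 sample 1 was the lowest of its group. Without that array the difference was 2.32. Pelo, a gene nested within Itga1 whose product rescues stalled ribosomes, differed by 0.52 ± 0.12 (SE) on the log2 scale (limma, adjusted p = 0.0273), a call missing from 5 leave-one-out fits of 6. The other measured alpha chains that bind collagen were not called. Itga11, which encodes the receptor for fibril collagen of fibroblasts, read 5.20, 5.22 and 5.21 and then 5.53, 5.42 and 5.39, a log2 difference of 0.24 (95% interval 0.07 to 0.40; limma, adjusted p = 0.0644) although its groups did not overlap. Itga2, of the other collagen receptor common on epithelia and platelets, differed by −0.07 (95% interval −0.40 to 0.26).

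Of the 3 laminin-binding alpha chains, Itga3 and Itga7 rose. Itga3, whose product joins beta1 as a laminin receptor of epithelia, read 9.11, 9.09 and 9.20 in the controls and 9.90, 9.99 and 10.09 with miR-302, 1.82-fold higher (log2 difference 0.86 ± 0.08 SE; limma, adjusted p = 0.00146). Itga7, the laminin receptor chain of muscle, read 6.18, 5.97 and 6.10 and then 6.78, 6.69 and 6.79, 1.59-fold higher (0.67 ± 0.08 SE; limma, adjusted p = 0.00358). The groups of both genes were separate and tight. The call of each held in all 6 leave-one-out fits. Mettl7b, whose locus overlaps that of Itga7, differed by 0.31 and was not called (limma, adjusted p = 0.106). Itga6, the laminin receptor chain used widely as a stem cell surface marker, read 10.46, 10.47 and 10.57 and then 10.75, 10.71 and 10.77. Its groups did not overlap either, but the difference of 0.24 (95% interval 0.08 to 0.41) did not pass (limma, adjusted p = 0.0559). It passed in limma with array weights (adjusted p = 0.0372), with a robust trended prior (0.00832) and when genes below the median level were dropped (0.0153).

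The other RGD-binding alpha chains did not pass the test. Itga5, the main fibronectin receptor chain, read 10.26, 10.11 and 10.17 in the controls and 10.22, 9.90 and 9.99 with miR-302, a difference of −0.14 (95% interval −0.38 to 0.10). Itgav, whose product pairs with several beta chains, differed by −0.05 (95% interval −0.27 to 0.16). A second row for Itgav differed by −0.23 (limma over all rows, adjusted p = 0.210). These intervals leave room for small changes and lie well below the rise of Itga8.

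Itga4 and Itga9, a related pair of alpha chains that bind fibronectin, VCAM-1 and tenascin, were not called. The miR-302 arrays of Itga9 lay on both sides of the controls: controls read 7.92, 7.90 and 7.90, miR-302 sample 1 read 8.10, and samples 2 and 3 read 7.30 and 7.25. Sample 1 was above and the other two below every control. The difference was −0.36 with all arrays (limma, adjusted p = 0.336) and −0.63 without sample 1 (adjusted p = 0.00147). Itga4 differed by 0.19 (limma, adjusted p = 0.504). A row shared by Itga4 and its neighbour Cerkl, which the rule leaves out, read 5.58, 5.52 and 5.62 in the controls and 5.18, 5.07 and 4.85 with miR-302. That shared row was not tested, nor was the part of either gene in it.

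Of the 4 leukocyte alpha chains, only Itgal was called, and it fell. Itgal encodes the alpha chain of LFA-1, with which lymphocytes bind ICAM-1. It read 6.34, 6.51 and 6.22 in the controls and 5.32, 5.75 and 5.39 with miR-302, 1.83-fold lower (log2 difference −0.87 ± 0.14 SE; limma, adjusted p = 0.00788). No miR-302 array reached a control array. The mean of Itgal over all 6 arrays also lies below the median level of all genes (6.16), although its control arrays read above it. Itgb2, which encodes its beta chain, differed by 0.19 (limma, adjusted p = 0.188). Itgae, Itgam and Itgax differed by 0.11, 0.19 and 0.06, and none of these passed. Among 9 leukocyte markers none were called (limma; 1 higher and 1 lower at an unadjusted p under 0.05, and the same counts called without miR-302 sample 1). Ptprc, which encodes the pan-leukocyte protein CD45, read 3.48, 3.21 and 3.16 in the controls and 3.64, 3.37 and 3.52 with miR-302, and the mean level of the list was 6.14 to 6.25 in the controls and 6.03 to 6.26 with miR-302. Cd3e, which encodes a T cell receptor subunit, read 8.52, 8.28 and 8.29 in the controls and 8.02, 6.60 and 6.69 with miR-302. Its groups did not overlap, and the difference of −1.26 did not pass with all arrays (limma, adjusted p = 0.060) and passed without sample 1 (−1.72; adjusted p = 0.000296). The part of these markers in the fall of Itgal was not tested.

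**Figure D2:**
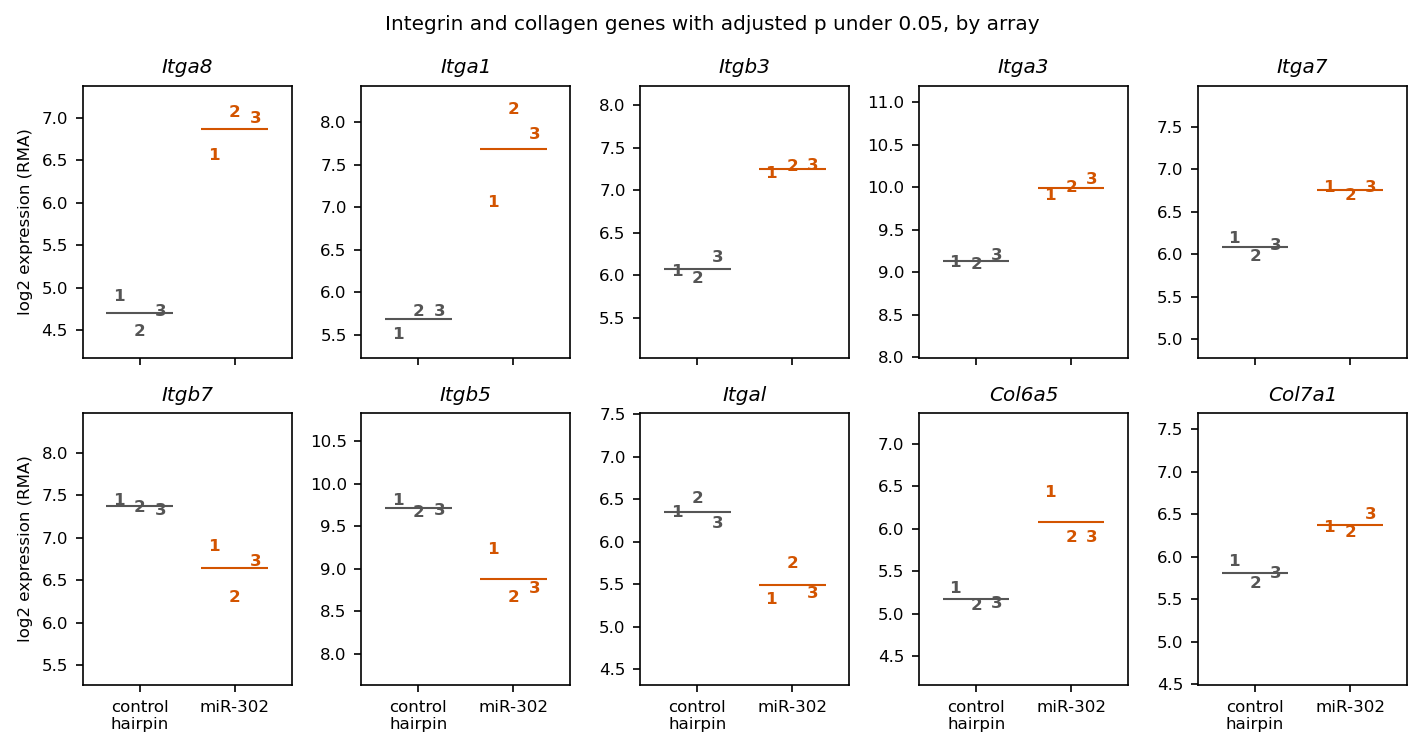
Log2 expression of the 10 called integrin and collagen genes on each array, with digits for the sample number and lines for group means; every panel spans the same height. In each gene the 3 control and 3 miR-302 arrays are apart, and miR-302 sample 1 lies nearest the controls for 6 of the 10: Itga1, Itga3, Itga8, Itgb3, Itgb5 and Itgb7.

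Among 8 beta chains, 1 rose, 2 fell and 5 were not called. Itgb3, whose product joins alphaV as the vitronectin receptor and alphaIIb as the platelet fibrinogen receptor, read 6.04, 5.96 and 6.21 in the controls and 7.19, 7.28 and 7.29 with miR-302. This was a rise of 1.18 ± 0.09 (SE) on the log2 scale, 2.27-fold (limma, adjusted p = 0.000699), with the miR-302 arrays within 0.10 of each other. Of its alpha partners, Itgav was not called (above), and Itga2b, which lies outside the symbol rule, differed by 0.06 (limma, adjusted p = 0.799). Of the platelet and megakaryocyte markers measured, Itga2b, Pf4, Ppbp and Gp9, none were called (limma; 1 higher at an unadjusted p under 0.05, and 1 called higher, Ppbp, without miR-302 sample 1).

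Itgb5 moved the other way. Its product is another partner of alphaV in binding vitronectin. It read 9.80, 9.66 and 9.68 in the controls and 9.22, 8.66 and 8.77 with miR-302, 1.78-fold lower (log2 difference −0.83 ± 0.15 SE; limma, adjusted p = 0.0127). The groups did not overlap, and miR-302 sample 1 lay nearest the controls. The call was lost without control sample 1 (adjusted p = 0.0560) or miR-302 sample 3 (0.0510). Itgb7, the beta chain of the gut-homing receptors of lymphocytes, read 7.44, 7.35 and 7.32 and then 6.90, 6.29 and 6.72, 1.66-fold lower (−0.73 ± 0.15 SE; limma, adjusted p = 0.0218). Its call was missing from 4 leave-one-out fits of 6, with adjusted p up to 0.0821. Both genes kept their direction in these fits. Itgae and Itga4, which encode the alpha partners of beta7, were not called.

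Itgb1 encodes the beta1 chain shared by the products of Itga1, Itga3, Itga7 and Itga8. It read 10.41, 10.50 and 10.49 in the controls and 9.92, 10.57 and 10.55 with miR-302. Sample 1 was below every control, and samples 2 and 3 were slightly above them. The difference was −0.12 (95% interval −0.54 to 0.30; limma, adjusted p = 0.710) and 0.09 without sample 1 (adjusted p = 0.368), so its sign depended on that array. Itgb6, the beta chain of an epithelial receptor that activates TGF-beta, read 3.74, 3.79 and 3.88 in the controls, 3.67 in miR-302 sample 1 and 4.62 and 5.06 in samples 2 and 3. It was not called with all arrays (limma, adjusted p = 0.235) and was called without sample 1 (difference 1.04, adjusted p = 0.00460). Itgb8 and Itgb2 were likewise called higher, among the leave-one-out fits, only without sample 1, by 0.39 and 0.27. Itgb4, the beta chain of hemidesmosomes, differed by −0.08 (95% interval −0.35 to 0.19).

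Without miR-302 sample 1, integrin calls numbered 8 higher and 4 lower, and collagen calls 7 higher and 0 lower, beside 24.3% of all genes called in that fit. The members called here and not with all arrays were Itga9, lower, and Itgb2, Itgb6, Itgb8, Col1a1, Col5a2, Col6a3, Col12a1 and Col23a1, higher. Without any 1 of the other arrays, 5 integrins and 2 collagens were higher and 1 to 3 integrins lower, beside 7.79% to 9.36% of all genes called. The lowest count of 1 came without control sample 1 or miR-302 sample 3.

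**Figure D3:**
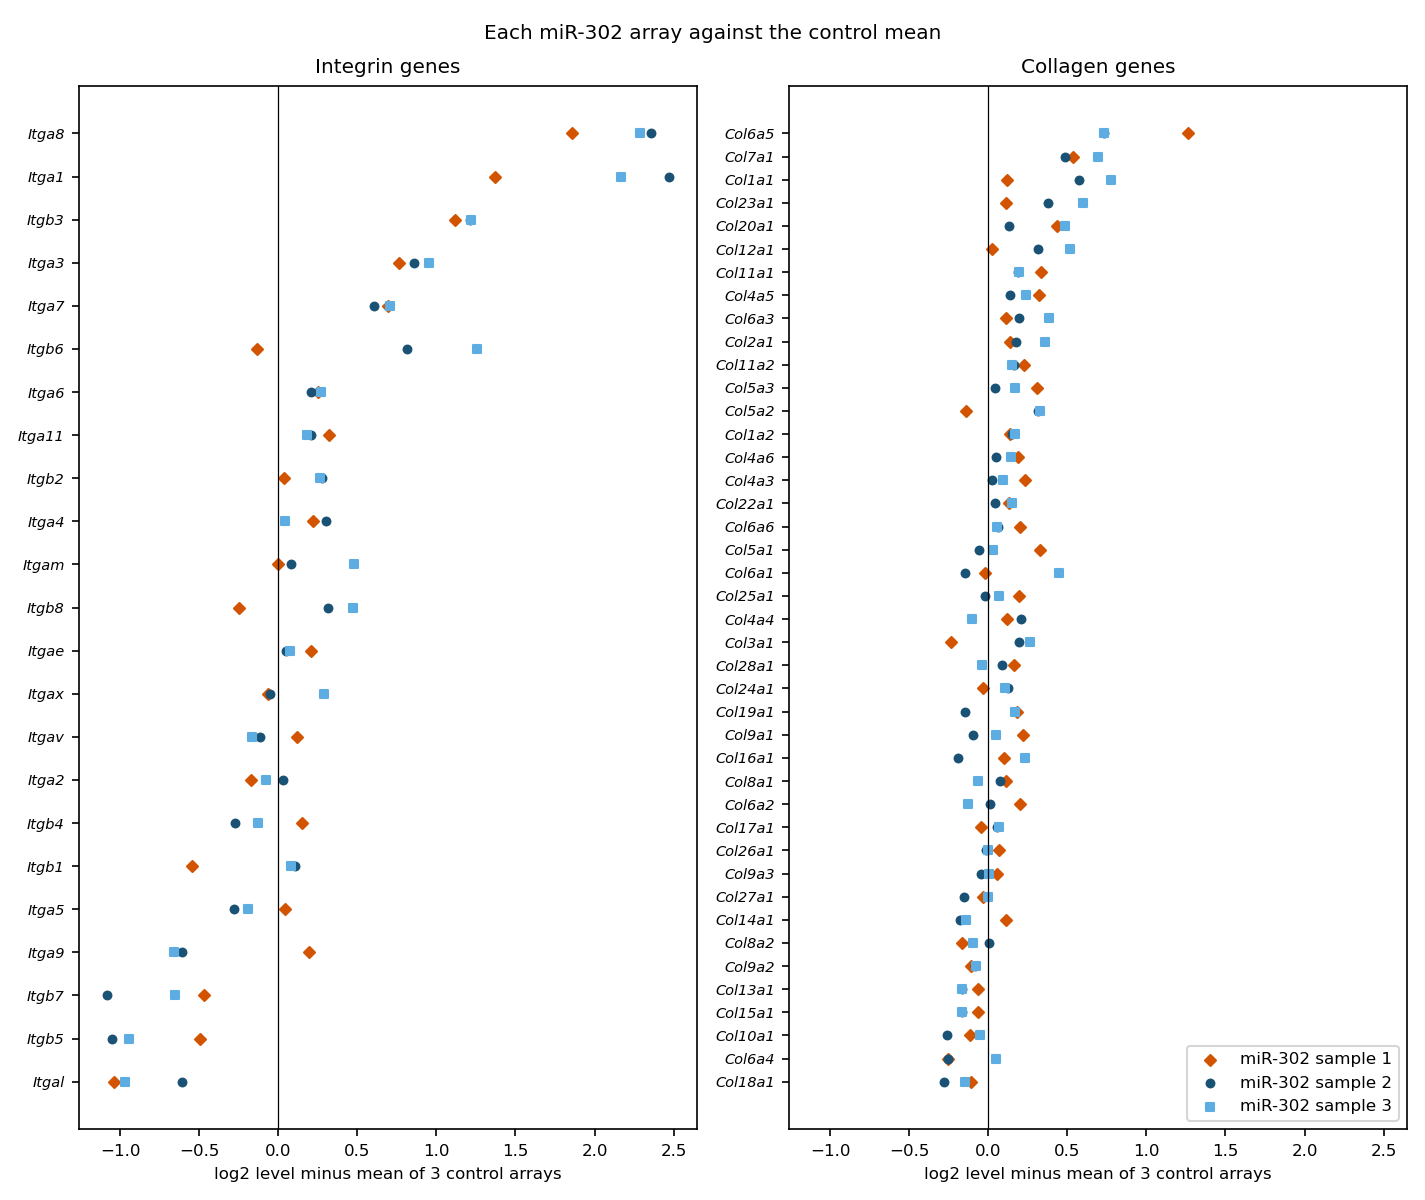
Log2 level of each integrin and collagen gene on each miR-302 array minus the mean of the 3 control arrays. Diamonds mark miR-302 sample 1, which lies apart from samples 2 and 3 for Itga1, Itga9, Itgb1, Itgb5, Itgb6, Itgb8, Col1a1 and Col6a5. For Itgb3, Itga3 and Itga7 the 3 arrays lie close together.

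None of the 11 fibrillar collagen genes passed (limma; 2 higher and 0 lower at an unadjusted p under 0.05), and their median log2 difference was 0.17. Col1a1, which encodes the major chain of type I collagen in skin and bone, read 6.51, 6.13 and 6.48 in the controls and 6.49, 6.95 and 7.15 with miR-302. The groups overlapped through miR-302 sample 1, and the difference of 0.49 (95% interval 0.05 to 0.93) did not pass (limma, adjusted p = 0.131); without that sample it was 0.68 (adjusted p = 0.0203). Its partner chain Col1a2 differed by 0.15 (limma, adjusted p = 0.253), and Col3a1, of the thin fibrils that accompany type I, by 0.07 (adjusted p = 0.837). Col2a1, the cartilage fibril collagen, read 6.71, 6.42 and 6.50 and then 6.68, 6.72 and 6.90 (difference 0.22; adjusted p = 0.207). The second rows of Col1a2 and Col5a1 and of the beaded filament chain Col6a1 differed by 0.01, 0.09 and 0.17 and were not called either.

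The call among the beaded filament collagens was Col6a5, a chain of the type VI family, which forms microfilaments around cells. It read 5.29, 5.09 and 5.12 in the controls and 6.43, 5.90 and 5.90 with miR-302, 1.88-fold higher (log2 difference 0.91 ± 0.16 SE; limma, adjusted p = 0.0109). All miR-302 arrays were above all controls, and sample 1 was the highest. Without it the difference was 0.73 (adjusted p = 0.00258). Col6a4 and Col6a6, the genes on either side of Col6a5, differed by −0.15 and 0.11 and were not called, nor were Col6a1, Col6a2 and Col6a3.

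Col7a1 encodes the anchoring fibril collagen that ties epithelial basement membrane to the tissue beneath. It read 5.94, 5.68 and 5.80 in the controls and 6.34, 6.29 and 6.50 with miR-302, 1.48-fold higher (log2 difference 0.57 ± 0.10 SE; limma, adjusted p = 0.0107). The groups did not overlap, and the call, like that of Col6a5, held in all 6 leave-one-out fits. With a fold of at least 1.5 also required, Col7a1 was no longer called. By their mean over all 6 arrays both collagens lie below the median level of all genes (6.16). Neither enters a fit limited to genes of higher level. The miR-302 arrays of Col7a1 read above 6.16.

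The remaining collagens were not called with all arrays. None of the 9 fibril-associated chains, 4 minor type IV chains, 4 transmembrane chains, 3 short-chain network chains or 2 multiplexins was called, and their differences lay between −0.18 and 0.36. The lowest was that of Col18a1, which encodes the basement membrane multiplexin that yields endostatin: it read 8.30, 8.34 and 8.23 in the controls and 8.18, 8.01 and 8.14 with miR-302 (−0.18; limma, adjusted p = 0.172), without overlap between the groups. Col9a2, of the fibril-associated type IX collagen of cartilage, read 6.98, 7.06 and 6.89 and then 6.87, 6.89 and 6.90 (−0.09). Without miR-302 sample 1, the fibril-associated Col12a1 and the transmembrane Col23a1 were called higher, by 0.42 and 0.49 (limma, adjusted p = 0.0186 and 0.0455). Col4a1 and Col4a2, the main chains of basement membrane type IV collagen, differed more than any of the minor type IV chains. Col4a1 read 6.86, 6.70 and 6.65 in the controls and 7.03, 7.78 and 8.09 with miR-302 (difference 0.90; limma, adjusted p = 0.0570). Col4a2 read 6.10, 5.87 and 6.11 and then 6.25, 7.09 and 6.91 (0.72; adjusted p = 0.0652). Both were called without miR-302 sample 1. The minor chains Col4a3, Col4a4, Col4a5 and Col4a6 differed by 0.12, 0.07, 0.23 and 0.13.

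Genes that make, modify and cross-link collagen changed in both directions. Of 25 measured, 3 were higher, 5 lower and 17 not called (32.0% called, beside 16.4% of all genes). At or above the median level lay 17 of the 25, and 26.7% of all genes at that level were called. Bmp1, which encodes the protease that trims the C-propeptide of fibril collagens, read 6.49, 6.61 and 6.41 in the controls and 8.35, 8.52 and 8.38 with miR-302, 3.77-fold higher (log2 difference 1.91 ± 0.09 SE; limma, adjusted p = 0.00013). By contrast, Serpinh1, the collagen chaperone of the endoplasmic reticulum, was 1.57-fold lower (−0.65 ± 0.09 SE; adjusted p = 0.00574). Crtap, of the complex that hydroxylates a collagen proline, was 1.89-fold lower (−0.92 ± 0.09 SE; adjusted p = 0.00202). Colgalt1, a galactosyltransferase for collagen lysines, was 1.55-fold lower, a call lost without any 1 array other than miR-302 sample 1. Without any 1 of the arrays other than that sample, 1 gene was higher and 2 were lower, and without it 3 and 8. Beside these stand 7.79% to 9.36% and 24.3% of all genes called.

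Of 18 genes for integrin activation and adhesion complexes, 6 were higher, 1 lower and 11 not called (38.9% called, beside 16.4% of all genes). At or above the median level lay 16 of the 18, and 26.7% of all genes at that level were called. Parva, which encodes parvin alpha, the link from integrin-linked kinase to actin, read 8.47, 8.44 and 8.57 in the controls and 9.42, 9.47 and 9.72 with miR-302, 2.06-fold higher (log2 difference 1.04 ± 0.10 SE; limma, adjusted p = 0.00163). On the log2 scale Src, the adhesion-linked tyrosine kinase, rose by 0.68 ± 0.11 (SE) and Tln1, which encodes the talin that switches integrins on, by 0.49 ± 0.08 (SE) (limma, adjusted p = 0.00915 and 0.0116), with Tln1 at 0.0507 without control sample 1. Cib1, an integrin-binding calcium sensor, rose 1.32-fold, a call missing from 3 leave-one-out fits of 6 and with the replicate number as a block (adjusted p = 0.0571). Without miR-302 sample 1, 8 were higher and 1 lower, and without any 1 of the others 2 to 4 higher and 0 lower. Beside these stand 24.3% and 7.79% to 9.36% of all genes called.

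Of 17 matrix and cell surface ligands of integrins, 5 were higher, 3 lower and 9 not called (47.1% called, beside 16.4% of all genes). At or above the median level lay 14 of the 17, and 26.7% of all genes at that level were called. The laminin chains split: on the log2 scale Lamb1 rose by 1.87 ± 0.10 (SE) and Lama1 by 1.17 ± 0.17 (SE) (limma, adjusted p = 0.000305 and 0.00637), while Lamb2 was 1.54-fold lower (adjusted p = 0.00437). Fn1, which encodes fibronectin, read 12.33, 12.31 and 12.33 in the controls and 11.83, 11.84 and 11.89 with miR-302, 1.39-fold lower (adjusted p = 0.00493). Npnt, which encodes the alpha8 ligand nephronectin, differed by 0.21 and was not called (adjusted p = 0.280). Without any 1 of the arrays the counts were 4 to 6 higher and 2 to 4 lower, beside 7.79% to 24.3% of all genes called.

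Of 14 genes for other collagen receptors and for collagen breakdown, 3 were higher, 4 lower and 7 not called (50% called, beside 16.4% of all genes). At or above the median level lay 7 of the 14, and 26.7% of all genes at that level were called. Timp3, the matrix-bound inhibitor of metalloproteases, was 2.81-fold higher (limma, adjusted p = 0.00133), and Timp1, the soluble one, was 1.38-fold lower (adjusted p = 0.00936). Mmp9 and Mmp2, both gelatinase genes, moved apart: Mmp9 rose by 1.09 ± 0.19 (SE) and Mmp2 differed by −0.84 ± 0.16 (SE) on the log2 scale (adjusted p = 0.0120 and 0.0158), calls missing from 2 and 5 leave-one-out fits of 6. Without miR-302 sample 1 the counts were 3 and 4, and without any 1 of the others 1 or 2 higher and 1 to 3 lower. Beside these stand 24.3% and 7.79% to 9.36% of all genes called.

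**Figure D4:**
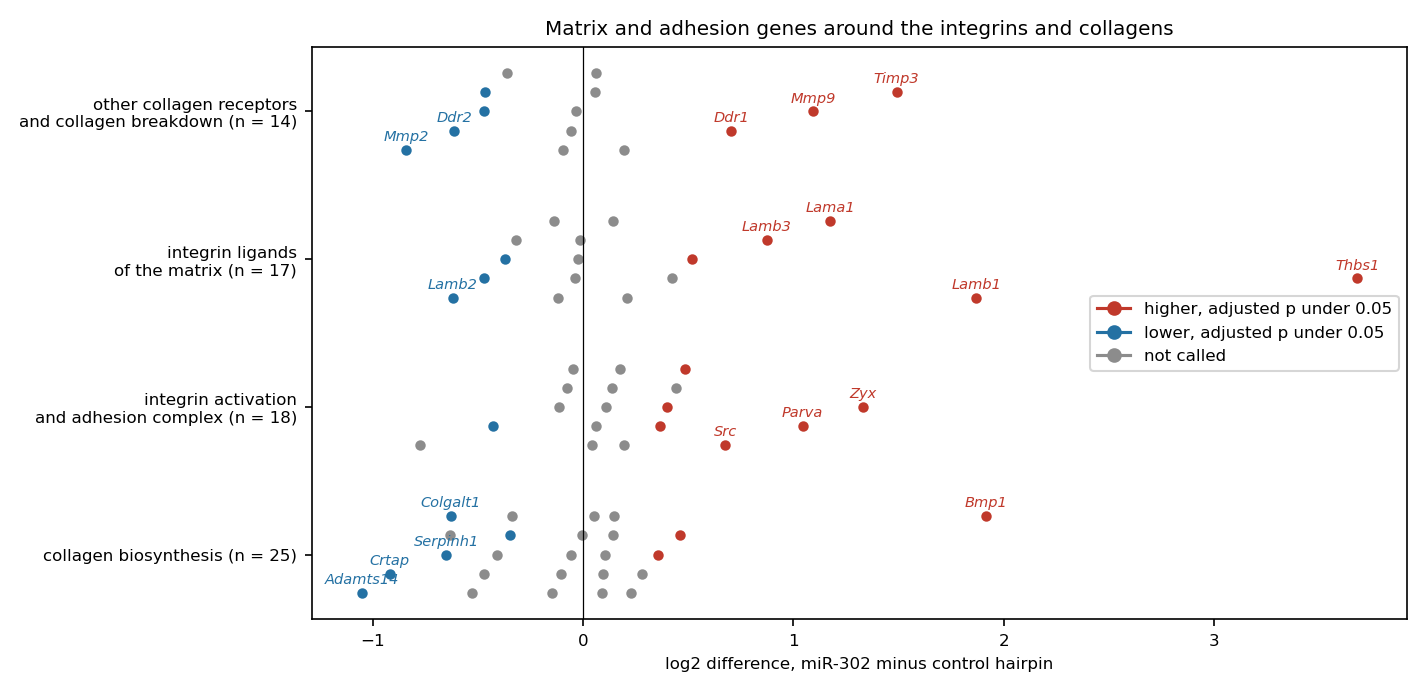
Difference in log2 level (miR-302 minus control hairpin) of the genes in 4 lists around the integrins and collagens, 1 point per gene, with the called genes of larger change named. Each list holds called genes on both sides of 0, from Adamts14 at −1.05 to Thbs1 at 3.68.

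Markers of other cell types moved beside some of these results. The share of all genes called was 16.4% with all arrays and 24.3% without miR-302 sample 1. Without any 1 of the other arrays that share was 7.79% to 9.36%. Of 7 smooth muscle markers 4 were higher (Acta2, Tagln, Cnn1 and Des) and none lower, and the mean level of the list was 6.28 to 6.43 in the controls and 7.69 to 8.19 with miR-302. Itga8, Itga1 and Itga7 are themselves known from muscle, and the part of these markers in their rise was not tested. Myh11, the defining myosin of mature smooth muscle, read 6.04, 6.35 and 6.10 in the controls and 6.11, 6.21 and 6.07 with miR-302. Of 9 trophoblast markers 6 were higher and none lower, with a mean level of 6.12 to 6.25 and then 7.23 to 8.08, lowest in miR-302 sample 1; 4 to 9 were higher when 1 array was left out. The part of these markers in the rise of Itga3 and Itgb3 was not tested. Of 12 fibroblast markers 1 was higher and 3 lower, with a mean level of 5.26 to 5.31 and then 5.0 to 5.19. The called ones were Fbln1, Meox2 and Thy1, which differed by −1.24, −1.10 and −0.38, and Twist1, at 0.42; the calls of Thy1 and Twist1 were missing from 5 leave-one-out fits of 6. Dcn, which encodes the matrix protein decorin, read 4.09, 4.22 and 4.46 in the controls and 4.53, 4.58 and 4.61 with miR-302, without overlap and not called (limma, adjusted p = 0.0902). Lum, which encodes lumican, read 3.62, 3.60 and 3.44 and then 3.69, 3.24 and 3.28. Of 11 primitive and parietal endoderm markers 2 were higher and 2 lower, but in 5 leave-one-out fits of 6 the counts were 0 higher and 1 lower. Of 7 endothelial markers 0 were higher and 2 lower, and 2 higher and 4 lower without miR-302 sample 1. Of 7 chondrocyte markers none were called (limma; 1 higher and 0 lower at an unadjusted p under 0.05), and all 7 differences were above 0. The mean level of the endoderm list was 5.95 to 6.02 in the controls and 6.04 to 6.14 with miR-302. For the endothelial list it was 6.63 to 6.80 and then 6.31 to 6.38, and for the chondrocyte list 4.83 to 4.88 and then 4.89 to 5.08. In each of these lists the mean levels of the groups did not overlap.

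The DNA just upstream is shown for the called members with a RefSeq window: Itga1, Itga8 and Col7a1, which rose, and Itgb5, which fell. RefSeq windows with 200 bases outside the annotated gene were found for 31 of the 65 members, 4 of them called. Each run below is the 200 bases before the gene's outermost annotated start, 5′ to 3′ on the strand of the gene (GRCm38.p6), with matches to GGGCGG on either strand in capitals. The other motifs searched, also on both strands, were TATAAA, the CArG box and, the letters GGAATG. Itga1 lies at chr13:115101965-115102164 (minus), Itga8 at chr2:12301986-12302185 (minus), Col7a1 at chr9:108953386-108953585 (plus) and Itgb5 at chr16:33829465-33829664 (plus).
Itga1: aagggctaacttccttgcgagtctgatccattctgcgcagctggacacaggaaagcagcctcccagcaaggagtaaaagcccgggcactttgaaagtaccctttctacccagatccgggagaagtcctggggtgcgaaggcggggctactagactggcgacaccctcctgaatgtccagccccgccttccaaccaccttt
Itga8: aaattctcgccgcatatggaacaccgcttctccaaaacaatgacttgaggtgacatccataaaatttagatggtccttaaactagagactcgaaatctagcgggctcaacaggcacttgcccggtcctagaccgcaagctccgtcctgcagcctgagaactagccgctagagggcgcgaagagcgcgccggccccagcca
Col7a1: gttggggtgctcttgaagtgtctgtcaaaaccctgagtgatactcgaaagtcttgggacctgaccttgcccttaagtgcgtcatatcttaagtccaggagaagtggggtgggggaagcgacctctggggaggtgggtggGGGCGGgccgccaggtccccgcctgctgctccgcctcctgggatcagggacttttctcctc
Itgb5: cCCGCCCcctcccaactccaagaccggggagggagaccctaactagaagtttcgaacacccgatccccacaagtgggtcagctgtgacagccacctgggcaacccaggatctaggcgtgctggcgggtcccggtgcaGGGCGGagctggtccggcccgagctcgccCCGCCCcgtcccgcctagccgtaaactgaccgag
The window of Itgb5 holds GGGCGG at 3 places and that of Col7a1 at 1, and those of Itga1 and Itga8 hold none of the 4 motifs. Of 21982 windows of this length, 27.4% hold GGGCGG, and 11.6% hold TATAAA, while 10.3% hold GGAATG and 1.17% the CArG box. Among the 31 members with a window, 15 hold GGGCGG, 3 TATAAA, 2 GGAATG and 0 the CArG box. These matches describe letters in a window and say nothing of binding.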

How the data were processed

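Total RNA of 6 samples was labelled with biotin and measured on single-colour arrays, per the labels' protocols. The deposited values, taken as log2 expression, were made by the authors with RMA, per the submitters' processing notes; that method subtracts background, gives all arrays 1 distribution and merges the probes of a row, which hides any shift of all genes together. The version, build and log base were not given in the sources used here; RMA gives base 2. Medians lie between 5.60 and 5.62 on the 6 arrays.

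Groups and replicate numbers come from the titles, and 0 columns were left without a sample. Of 33649 rows, 23521 name 1 gene, 1814 several and 8314 none in the platform annotation. The single-gene row of highest mean stood for a gene, which left 22180 genes. All 65 members had their symbol in the RefSeq gene table (GRCm38.p6). The test per gene was limma's (version 3.58.1, R 4.3.3; two-sided, lmFit then eBayes), with Benjamini-Hochberg adjustment over all genes and a threshold of 0.05; all adjusted p-values in the text come from limma. Lists are described by counts and medians. The fit was tested on simulated data. Probes differ, so a split of genes by level is a split by the reading of the row, not by RNA abundance. The choice of these families as the members, and of the lists, was made with earlier results of these data known; within the families the symbol decides. Values were named for called members, for the 3 integrins and 3 collagens of highest mean, for up to 4 genes of smallest p in each companion list, and for others singled out after their values were seen: Itga2, Itga9, Itga11, Itgb6, Col1a1, Npnt, Cd3e, Thbs1, Adamts14 and the marker genes among them. Other settings tried were a replicate block, 1 array left out at a time, no genes below the median level, a robust trended prior, median centring, quantile normalization, the mean of a gene's rows, a fold of at least 1.5 and array weights. The number of arrays limits the precision. Plots were made in Python 3.11.15 with matplotlib 3.10.9.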

Additional observations from a re-analysis of the deposited data

How the results depend on the processing

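Centring on the median, quantile normalization and the mean of a gene's rows left the counts of called integrins and collagens as reported (5 higher and 3 lower, 2 higher and 0 lower), as did the replicate number as a block. Array weights called 9 integrins higher and 4 lower, 6 collagens higher and 0 lower, and 2617 genes higher and 3004 lower. A robust trended prior called 6 integrins higher and 3 lower, 2 collagens higher and 0 lower, and 2019 genes higher and 2572 lower. A fold of at least 1.5 left 1 collagen, and 636 genes higher and 925 lower. Dropping genes below the median level left 9 collagens, of which 0 were called, and 12 integrins, of which 5 were higher and 2 lower (58.3% called), with a median of −0.068, beside 38.7% of all genes called. Itga8 and Itgal lie below that level and are not in this fit, while Itga6 was among its higher calls. The level was the mean over all 6 arrays. Itga1, Itgb3 and Itga7 had control means below 6.16 and entered this fit only through their miR-302 arrays. Itgal, with a control mean above 6.16, was left out through its fall. The counts of this fit are thus drawn partly from the changes themselves. Leaving out 1 array gave 685 to 2484 genes higher and 1043 to 2911 lower, 5 to 8 integrins higher and 1 to 4 lower, 2 to 7 collagens higher and 0 lower, and medians of 0.04 to 0.19 for the integrins and 0.058 to 0.13 for the collagens. With the replicate number as a block 964 genes were higher and 1329 lower. Same-numbered samples had correlations of 0.0192, 0.0167 and 0.00845 in their deviations, so the numbers do not show a pairing, and the block is given as an alternative. The sign of Itgb1 turned without miR-302 sample 1 (0.093) and with array weights (0.030) (the cause was not tested); the range over arrays left out was −0.23 to 0.093. With 3 arrays a group, precision is limited, and low levels cannot be told from background.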
